A study of Mus musculus with 6 samples.

Results

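Glycosaminoglycan synthesis and cell-surface proteoglycan genes were compared between CD73+CD105+ and CD73+CD105- cells of mouse bone marrow. The members were found by a rule on gene symbols that uses no measured value, although the set was proposed with earlier results of these data known. They include the glypicans and syndecans, and enzymes that make, sulphate, edit or break down hyaluronan, heparan sulphate and chondroitin or dermatan sulphate. Also among them are 9 enzymes that act on keratan sulphate and other sugars. The members numbered 73 of the 19938 genes tested. Each was represented by 1 probe set, since no member had several probe sets with a single gene symbol. Primary marrow was dissociated and sorted for cells lacking CD45 (leukocytes) and Ter119 (red cell precursors) and carrying the adenosine-producing ectoenzyme CD73, and these were divided by CD105, the TGF-beta co-receptor endoglin. There were 3 samples of CD73+CD105+ cells and 3 of CD73+CD105- cells, sorted directly into lysis buffer, with total RNA from each hybridised to 1 array. The series concerns marrow stroma engrafted with blood stem cell transplants. The labels call the samples biological replicates; the sources used here do not give strain, age, sex or any pooling of animals, so a p-value reflects only how far these samples spread.

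Glycosaminoglycans are long chains of repeating sugar pairs. Hyaluronan is made free at the plasma membrane, whereas heparan sulphate and chondroitin sulphate are built in the Golgi on a short linkage of sugars that starts with xylose on a core protein. Sulphotransferases then decorate the chains, and the pattern of sulphate sets which growth factors, chemokines and protease inhibitors they bind. Cartilage is rich in chondroitin sulphate, and the heparan sulphate of stromal and vascular cells is known to hold chemokines and growth factors near the cell surface.

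Values are RMA log2 levels, and every difference subtracts the CD73+CD105- mean from the CD73+CD105+ mean. It was tested with limma and called at a Benjamini-Hochberg adjusted p under 0.05 over all 19938 genes. Array medians lay between 6.27 and 6.35, and with 3 arrays a population precision is limited (median standard error of a difference 0.10 over the members). Eng, which encodes CD105, averaged 8.06 ± 0.25 in CD73+CD105+ arrays and 6.30 ± 0.21 in CD73+CD105- arrays (SD, n = 3 each), in the direction of the sort by CD105. Nt5e, which encodes CD73, stood at 10.43, 10.38 and 10.28 in CD73+CD105+ arrays, against 10.58, 10.76 and 10.53 in CD73+CD105- arrays (-0.26, SE 0.09, limma adjusted p = 0.183). Both populations were sorted to carry CD73, and every CD73+CD105+ value was the lower. Averaged per gene, the replicate 1 arrays of both populations nearly matched the average of the other 4 arrays (SD of the gap 0.0423 over genes, against at least 0.122 for any other cross-population pair). No label describes this balance. With it the 6 arrays do not vary independently, as the fit without a batch term assumes. So the p-values of that fit may be too small, and its standard errors and 95% intervals too narrow. The called results are therefore also given with a batch term for replicate 1. Of 8 endothelial markers all 8 were called higher, with a mean level of 7.86 to 8.19 in CD73+CD105+ arrays and 5.60 to 5.94 in CD73+CD105- arrays, and 5 of the 8 lay below 6.01 in CD73+CD105- cells. That level is the 95th percentile over receptor genes of smell and pheromone sensing, which serve here as genes unused in marrow. Of 8 reticular stroma markers 6 were called higher, with mean levels of 9.20 to 9.42 in CD73+CD105+ arrays and 8.22 to 8.44 in CD73+CD105- arrays. Of all genes tested, 1.35% were called higher. Of 10 chondrocyte markers 0 were called, and 6 had an unadjusted limma p under 0.05, all lower, against 9.09% of all genes lower. All 10 differences were below 0, against 11084 of all 19938 genes. Their mean level was 11.33 to 11.70 in CD73+CD105+ arrays and 11.73 to 11.95 in CD73+CD105- arrays. The part of these cell types in the results below was not tested. In such sorted populations, fewer cells of a type and less RNA per cell cannot be told apart.

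Of the 73 glycosaminoglycan and proteoglycan genes, 1 fell and 1 rose in CD73+CD105+ cells. Pxylp1, which removes a phosphate from the xylose of the linkage, fell 1.66-fold in CD73+CD105+ cells, and Hs3st1, which makes the antithrombin-binding form of heparan sulphate, rose 1.36-fold. These 2 of 73 members were called, against 1.82% of all genes tested (1.35% higher and 0.466% lower), and 71 did not pass. With the batch term for replicate 1, 0 members were called, against 0.507% of all genes. The median difference was -0.05 over the members and -0.02 over all genes, with 29 members above 0 and 44 below, against 8854 and 11084 of all genes. No member differed 2-fold or more, against 134 of all 19938 genes.

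Smaller differences were more common. An absolute difference of 0.5 or more was found in 8 members, 3 higher and 5 lower, against 4.08% of all genes (2.85% higher and 1.23% lower). The 3 arrays of each population did not overlap in 26 members, 9 higher and 17 lower, against 23.7% of all genes, 10.7% higher and 12.9% lower. An unadjusted limma p under 0.05 was found in 23 members, 7 higher and 16 lower, against 17.7% of all genes (8.58% higher and 9.09% lower). At the other end, the 95% interval in the fit without a batch term lay wholly within 0.5 of 0 in 45 of the 73. The same held for 15641 of all 19938 genes, a larger share. A further limit is that 13 members lay below the receptor gene level of 6.01 in both populations, where RMA compresses differences. So did 6924 of all 19938 genes, a larger share. The shares of all genes given here were not matched to the members by level.

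**Figure D1:**
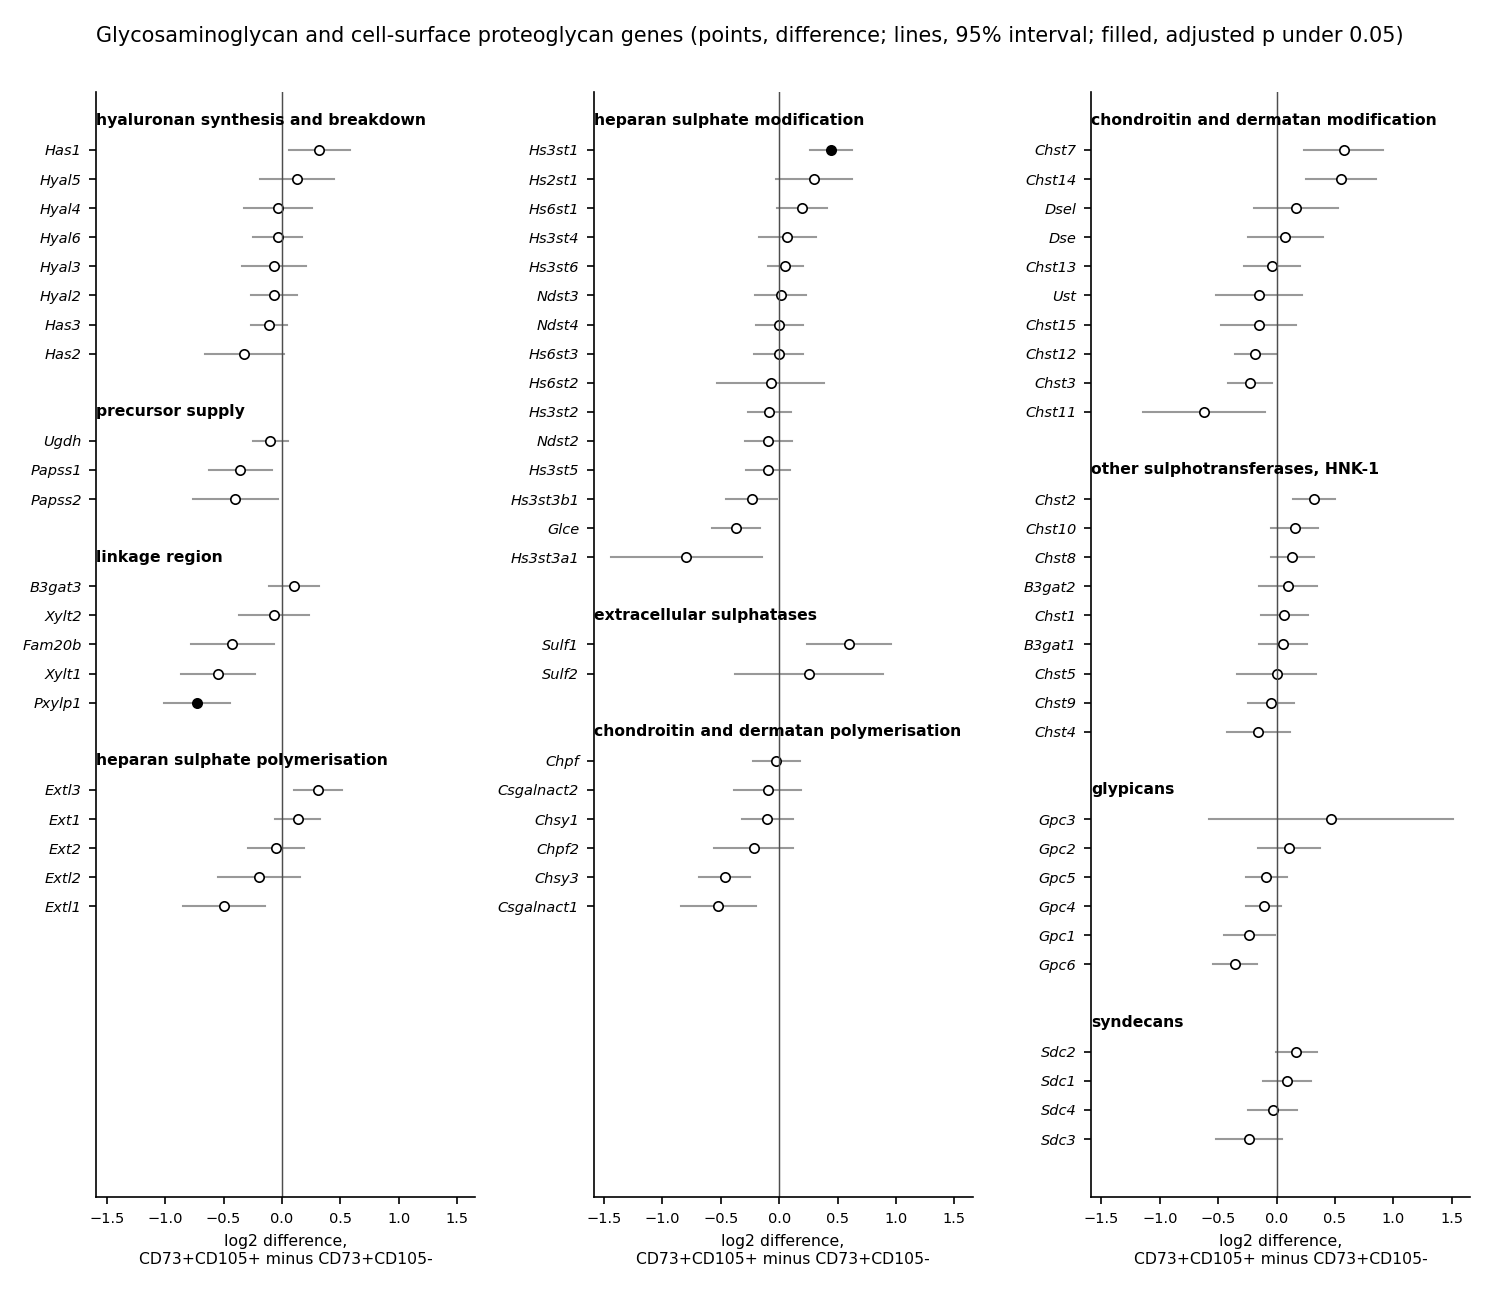
Log2 differences of the 73 genes by role (CD73+CD105+ minus CD73+CD105-). Points are differences, lines 95% intervals of the limma fit, and filled points the 2 genes with an adjusted p under 0.05, Pxylp1 at -0.73 and Hs3st1 at 0.45; the precursor supply and chondroitin polymerisation genes all lie left of 0.

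The linkage between core protein and chain is begun by the xylosyltransferases Xylt1 and Xylt2, switched by the kinase Fam20b and the phosphatase Pxylp1, and completed by the glucuronyltransferase B3gat3. Pxylp1 stood at 7.95, 7.67 and 7.80 in CD73+CD105+ arrays, against 8.32, 8.63 and 8.67 in CD73+CD105- arrays. Every CD73+CD105+ value lay below every CD73+CD105- value. The difference was -0.73 (SE 0.12, 95% interval -1.01 to -0.45, limma adjusted p = 0.0334). It was -0.36 in replicate 1 and -0.91 in replicates 2 and 3, and its limma adjusted p was 0.0924 with the batch term. Leaving out a single array gave differences of -0.84 to -0.66. Chondrocyte markers also lay lower on average in CD73+CD105+ arrays (median difference -0.27, 0 of 10 called), and their part in the difference was not tested. The limma adjusted p was 0.0394 without CD73+CD105- replicate 1, 0.108 and 0.0732 without replicates 2 and 3 of that population, and 0.0707, 0.0747 and 0.101 without CD73+CD105+ replicates 1, 2 and 3.

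Xylt1 stood at 9.63, 9.97 and 9.46 in CD73+CD105+ arrays, against 10.29, 10.31 and 10.10 in CD73+CD105- arrays. These values did not overlap, and the difference of -0.55 (SE 0.14) missed the threshold (limma adjusted p = 0.101). It passed without CD73+CD105+ replicate 2 (-0.69, limma adjusted p = 0.0393) and missed the threshold without any other single array. With the batch term the limma adjusted p of Xylt1 was 0.226. Fam20b stood at 9.50, 9.66 and 9.10 in CD73+CD105+ arrays, against 9.74, 9.80 and 9.997 in CD73+CD105- arrays, again without overlap (-0.42, limma adjusted p = 0.209). The difference was -0.26 without CD73+CD105+ replicate 3. The other two enzymes of the step overlapped, with differences of -0.07 for Xylt2 and 0.10 for B3gat3. Thus 4 of the 5 linkage genes lay below 0, against 11084 of all 19938 genes, and their median was -0.42. An unadjusted limma p under 0.05 was found in 3 of the 5, all lower, against 9.09% of all genes lower. Non-overlapping lower values were found in 3, against 12.9% of all genes.

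The 250 bases before the annotated start of each of the 2 called genes are shown because these genes carry the calls, taken from RefSeq promoters of build GRCm38.p6, in which 57 of the 73 members were found. Capitals mark matches to any of the 6 motifs spelled out below the sequences, searched on both strands. The Pxylp1 window lies at chr9:96889475-96889724 and the Hs3st1 window at chr5:39644632-39644881, both on the minus strand.
Pxylp1: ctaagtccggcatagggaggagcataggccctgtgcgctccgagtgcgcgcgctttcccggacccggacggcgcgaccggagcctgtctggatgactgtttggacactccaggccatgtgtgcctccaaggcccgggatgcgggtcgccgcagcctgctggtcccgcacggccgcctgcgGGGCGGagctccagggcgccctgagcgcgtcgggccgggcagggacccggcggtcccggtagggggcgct
Hs3st1: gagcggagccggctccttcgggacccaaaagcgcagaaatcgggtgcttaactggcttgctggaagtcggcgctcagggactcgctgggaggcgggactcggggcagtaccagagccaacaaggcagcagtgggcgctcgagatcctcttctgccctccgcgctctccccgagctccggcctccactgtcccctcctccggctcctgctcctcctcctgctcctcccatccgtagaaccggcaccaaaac

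The Pxylp1 window held 1 GC box, beginning 70 bases before the start, and the Hs3st1 window held none of the 6 motifs as spelled. Both are rich in G and C, at 73.6% for Pxylp1 and 66% for Hs3st1. The GC box, spelled GGGCGG, was found in 43 of the 66 windows of the members (65.2%) and in 32.7% of all 32851 windows of that length. The TATA box letters TATAAA were found in 3 of the 66 (4.55%) and in 12.4% of all windows. The SOX core letters ACAAAG were found in 2 of the 66 (3.03%) and in 16.5% of all windows. The ETS core with a flank, spelled CCGGAA, was in 9.09% of the members' windows and 12% of all windows. The AP-1 letters TGACTCA were in 1.52% of the members' windows and 4.46% of all windows, and the E-box letters CACGTG were in 7.58% and 6.02%. None of the 6 spellings contains another. A match is a description of letters and not a site.

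Precursors for the chains come from Ugdh, which makes the glucuronic acid donor, and from Papss1 and Papss2, which make the sulphate donor. All 3 had CD73+CD105+ values below every CD73+CD105- value, and 0 were called (2 had an unadjusted limma p under 0.05). Of all genes, 12.9% had such non-overlapping lower values and 9.09% a lower value at that p. Papss2, the form whose loss disturbs growth cartilage in mice and humans, stood at 11.45, 11.62 and 11.08 in CD73+CD105+ arrays, against 11.71, 11.98 and 11.65 in CD73+CD105- arrays. The gap between the nearest arrays was small beside the spread, and the difference was -0.40 (SE 0.15, limma adjusted p = 0.246), or -0.24 without CD73+CD105+ replicate 3. Papss1 stood at 8.16, 7.97 and 8.01 in CD73+CD105+ arrays, against 8.18, 8.46 and 8.57 in CD73+CD105- arrays (-0.36, limma adjusted p = 0.174). That difference was -0.02 in replicate 1 and -0.52 in replicates 2 and 3. Ugdh lay at 11.20, 11.27 and 11.20 in CD73+CD105+ arrays, against 11.31, 11.30 and 11.37 in CD73+CD105- arrays. Its 95% interval was narrow, -0.25 to 0.05.

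**Figure D2:**
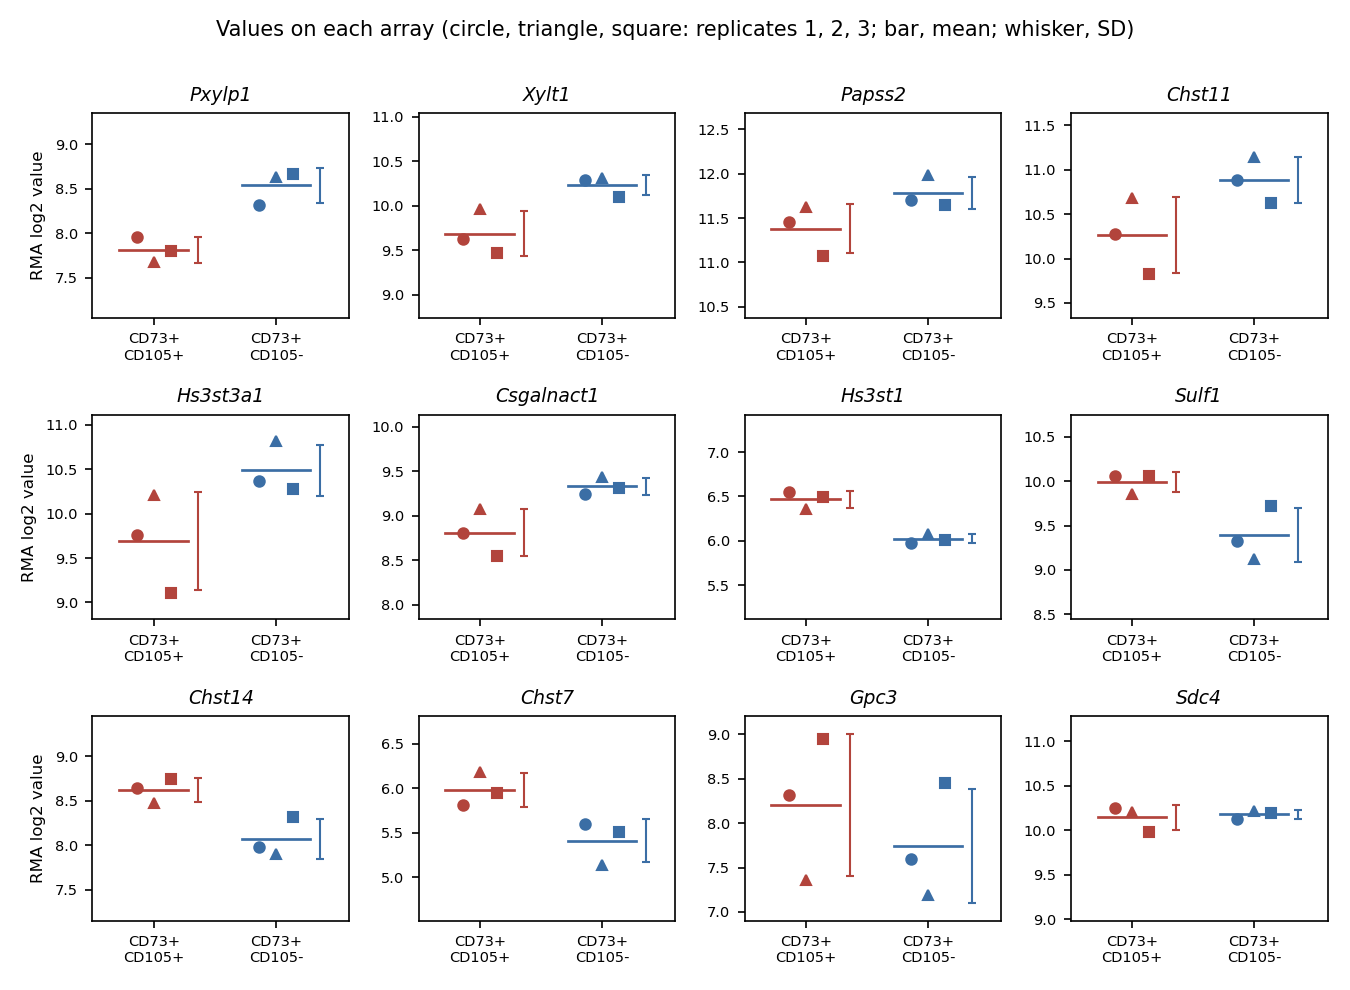
RMA log2 values of 12 genes on each of the 6 arrays, CD73+CD105+ on the left and CD73+CD105- on the right of each panel, with bars for the mean, whiskers for the SD (n = 3 each) and every axis spanning the same range. The populations do not overlap for Pxylp1 (7.67 to 7.95 in CD73+CD105+ arrays, 8.32 to 8.67 in CD73+CD105- arrays) or Hs3st1 (6.36 to 6.55 in CD73+CD105+ arrays, 5.98 to 6.08 in CD73+CD105- arrays), while Gpc3 and Sdc4 overlap.

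Chondroitin chains are begun by Csgalnact1 and Csgalnact2 and extended by the synthases Chsy1 and Chsy3 with the polymerising factors Chpf and Chpf2. Of 7 listed genes these 6 were measured, and 0 were called. An unadjusted limma p under 0.05 was found in 2, both lower, against 9.09% of all genes lower. All 6 differences were below 0, with a median of -0.16, against 11084 of all 19938 genes below 0. Csgalnact1, the main initiator in mouse cartilage, stood at 8.81, 9.08 and 8.54 in CD73+CD105+ arrays, against 9.25, 9.43 and 9.31 in CD73+CD105- arrays. The arrays did not overlap, and the difference was -0.52 (SE 0.14, limma adjusted p = 0.112). Chsy3 stood at 8.37, 8.43 and 8.20 in CD73+CD105+ arrays, against 8.71, 8.93 and 8.77 in CD73+CD105- arrays, also without overlap (-0.47, SE 0.09, limma adjusted p = 0.058, or 0.161 with the batch term). Csgalnact2, Chsy1, Chpf2 and Chpf overlapped, with differences between -0.22 and -0.02. Of the 6, 2 differed in the same direction in replicate 1 and in replicates 2 and 3, against 56.2% of all genes.

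Among the 10 enzymes that modify chondroitin and dermatan sulphate, 0 were called, and the differences ran from -0.62 to 0.57. Of the 10, 5 had an unadjusted limma p under 0.05 (2 higher and 3 lower), against 17.7% of all genes. Chst11, a 4-O-sulphotransferase needed for mouse growth plate cartilage, stood at 10.28, 10.68 and 9.83 in CD73+CD105+ arrays, against 10.89, 11.14 and 10.62 in CD73+CD105- arrays. Replicate 2 of CD73+CD105+ cells overlapped replicate 3 of CD73+CD105- cells, and the difference was -0.62 (SE 0.22, limma adjusted p = 0.215), or -0.40 without CD73+CD105+ replicate 3. Chst14, the 4-O-sulphotransferase of dermatan sulphate, lay the other way, at 8.65, 8.47 and 8.75 in CD73+CD105+ arrays against 7.98, 7.91 and 8.32 in CD73+CD105- arrays. Its values did not overlap (0.55, SE 0.13, limma adjusted p = 0.0877), and it passed without CD73+CD105- replicate 3 (0.68, limma adjusted p = 0.0449). Chst14 missed the threshold without any other single array, and its limma adjusted p was 0.203 with the batch term. Chst7, a 6-O-sulphotransferase, stood at 5.81, 6.19 and 5.95 in CD73+CD105+ arrays, against 5.59, 5.14 and 5.50 in CD73+CD105- arrays (0.57, SE 0.15, limma adjusted p = 0.106). Its difference was 0.22 in replicate 1 and 0.75 in replicates 2 and 3, and its mean lay below the receptor gene level in both populations.

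The other chondroitin-modifying genes had smaller differences. Chst12, another 4-O-sulphotransferase, stood at 9.44, 9.50 and 9.34 in CD73+CD105+ arrays, against 9.66, 9.63 and 9.53 in CD73+CD105- arrays (-0.18, limma adjusted p = 0.266). Chst3, the 6-O-sulphotransferase linked to skeletal dysplasia in humans, differed by -0.23 without overlap (limma adjusted p = 0.199). The dermatan epimerases Dse and Dsel overlapped, at 0.08 and 0.17, as did Ust (-0.15), Chst15 (-0.15) and Chst13 (-0.04). Beside these groups, the chondrocyte marker list had a median difference of -0.27.

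Heparan sulphate is polymerised by the Ext1 and Ext2 complex, with the related enzymes Extl1, Extl2 and Extl3. None of the 5 was called (2 had an unadjusted limma p under 0.05, 1 higher and 1 lower, against 17.7% of all genes). Extl3, which starts the heparan sulphate chain, stood at 7.63, 7.66 and 7.76 in CD73+CD105+ arrays, against 7.39, 7.49 and 7.25 in CD73+CD105- arrays (0.31, SE 0.09, limma adjusted p = 0.129). Extl1 stood at 7.31, 7.71 and 7.13 in CD73+CD105+ arrays, against 8.002, 7.85 and 7.79 in CD73+CD105- arrays (-0.50, SE 0.15, limma adjusted p = 0.154). Neither gene overlapped between the populations, and Extl1 passed without CD73+CD105+ replicate 2 (-0.66, limma adjusted p = 0.0423). Extl1 missed the threshold without any other single array, and its limma adjusted p was 0.295 with the batch term. Ext1 differed by 0.13 and Ext2 by -0.05, with overlapping arrays and intervals of -0.06 to 0.32 and -0.29 to 0.19. Extl2 differed by -0.20 and also overlapped, at 0.17 in replicate 1 and -0.38 in replicates 2 and 3.

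Of 16 listed genes that modify heparan sulphate 15 were measured, Ndst1 not among them. The 3-O-sulphotransferase gene Hs3st1 was called, 1 of the 15, against 1.82% of all genes. Of the 15, 4 had an unadjusted limma p under 0.05, against 17.7% of all genes. Hs3st1 stood at 6.55, 6.36 and 6.50 in CD73+CD105+ arrays, against 5.98, 6.08 and 6.01 in CD73+CD105- arrays, close to the receptor gene level of 6.01 in the CD73+CD105- cells. The arrays did not overlap, and Hs3st1 rose by 0.45 (SE 0.08, 95% interval 0.27 to 0.62, limma adjusted p = 0.0385). Its limma adjusted p was 0.128 with the batch term, 0.0501 when the arrays were quantile normalized again and 0.0593 when they were centred on their medians. Endothelial and reticular markers were higher in the same arrays (median differences 2.11 and 1.10), and their part in the Hs3st1 difference was not tested. The difference was 0.57 in replicate 1 and 0.39 in replicates 2 and 3, and between 0.41 and 0.50 with a single array left out. The limma adjusted p was 0.0429 without CD73+CD105+ replicate 2, 0.171 and 0.113 without replicates 1 and 3 of that population, and 0.15, 0.0908 and 0.0774 without CD73+CD105- replicates 1, 2 and 3.

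Hs3st3a1 is also a 3-O-sulphotransferase, of the kind whose product binds a herpes simplex virus glycoprotein. With all 6 arrays it had the largest absolute difference of the 73 members, but without CD73+CD105+ replicate 3 its difference was -0.50, smaller in size than that of Pxylp1 (-0.72). Hs3st3a1 stood at 9.76, 10.21 and 9.11 in CD73+CD105+ arrays, against 10.37, 10.82 and 10.28 in CD73+CD105- arrays. The arrays did not overlap, but the spread within each population was wide, and the difference of -0.80 (SE 0.27, 95% interval -1.44 to -0.15) did not pass (limma adjusted p = 0.201). Its relative Hs3st3b1 differed by -0.24 with overlap (limma adjusted p = 0.254). Glce, the epimerase that turns glucuronic into iduronic acid, stood at 8.83, 8.91 and 8.93 in CD73+CD105+ arrays, against 9.20, 9.17 and 9.42 in CD73+CD105- arrays (-0.37, SE 0.09, limma adjusted p = 0.0901). Hs2st1, a 2-O-sulphotransferase, differed by 0.30 and Hs6st1, a 6-O-sulphotransferase, by 0.19, and Hs6st1 did not overlap. Both had smaller differences in replicates 2 and 3, at 0.10 for Hs2st1 and 0.08 for Hs6st1. The other 9 genes of this group overlapped and lay between -0.10 and 0.07, and 5 of the 15 were below the receptor gene level in both populations.

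The secreted sulphatases Sulf1 and Sulf2 remove 6-O-sulphate from heparan sulphate outside the cell. Sulf1 stood at 10.06, 9.86 and 10.06 in CD73+CD105+ arrays, against 9.33, 9.12 and 9.72 in CD73+CD105- arrays. Every CD73+CD105+ value was the higher, and the difference was 0.60 (SE 0.15, 95% interval 0.24 to 0.96, limma adjusted p = 0.107). It passed without CD73+CD105- replicate 3 (0.77, limma adjusted p = 0.038) and missed the threshold without any other single array. With the batch term the limma adjusted p of Sulf1 was 0.23. Sulf2 stood at 9.62, 9.14 and 9.89 in CD73+CD105+ arrays, against 9.02, 9.02 and 9.85 in CD73+CD105- arrays. Those ranges overlapped (0.26, SE 0.27, limma adjusted p = 0.669). The Sulf2 difference ran from 0.09 without CD73+CD105+ replicate 3 to 0.53 without CD73+CD105- replicate 3.

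Glypicans are core proteins held to the membrane by a lipid anchor, and syndecans span it. None of the 10 was called (2 had an unadjusted limma p under 0.05, both lower, against 9.09% of all genes lower). Gpc6 stood at 9.90, 10.001 and 9.77 in CD73+CD105+ arrays, against 10.20, 10.28 and 10.27 in CD73+CD105- arrays, without overlap (-0.36, SE 0.08, limma adjusted p = 0.0782). Gpc1 and Gpc4 also lay below in all 3 CD73+CD105+ arrays, by -0.23 and -0.11 (limma adjusted p = 0.253 and 0.423). Gpc3, whose loss causes overgrowth in mice and humans, stood at 8.31, 7.36 and 8.95 in CD73+CD105+ arrays, against 7.59, 7.19 and 8.45 in CD73+CD105- arrays. It had the widest spread within populations of the 73 members, and its difference of 0.46 (SE 0.44, limma adjusted p = 0.637) was within that spread. It ran from 0.09 without CD73+CD105+ replicate 3 to 0.89 without CD73+CD105+ replicate 2. Gpc2 and Gpc5 overlapped, at 0.11 and -0.09.

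Of the 4 syndecans, Sdc2 stood at 10.90, 10.84 and 11.02 in CD73+CD105+ arrays, against 10.79, 10.70 and 10.76 in CD73+CD105- arrays. Those values did not overlap (0.17, SE 0.07, limma adjusted p = 0.296). Sdc4, a syndecan of focal adhesions, stood at 10.25, 10.20 and 9.98 in CD73+CD105+ arrays, against 10.12, 10.21 and 10.20 in CD73+CD105- arrays. Its 95% interval was -0.24 to 0.18, and its sign changed without CD73+CD105+ replicate 3. Sdc1, also a marker of plasma cells, had an interval of -0.11 to 0.29, and Sdc3 differed by -0.24 (limma adjusted p = 0.363). Of 7 plasma cell and B cell markers measured, 0 were called and 4 lay below the receptor gene level in both populations. An unadjusted limma p under 0.05 was found in 2, against 17.7% of all genes.

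Hyaluronan is made by Has1, Has2 and Has3 and cut by the hyaluronidases. Of 9 listed genes 8 were measured, Hyal1 not among them. None of the 8 was called (1 had an unadjusted limma p under 0.05, against 17.7% of all genes). Has1 stood at 8.32, 8.03 and 8.12 in CD73+CD105+ arrays, against 7.65, 7.92 and 7.94 in CD73+CD105- arrays. Its values did not overlap (0.32, SE 0.11, limma adjusted p = 0.205), though the difference was 0.67 in replicate 1 and 0.15 in replicates 2 and 3. Has2, the synthase needed for mouse heart development, stood at 8.52, 8.88 and 8.35 in CD73+CD105+ arrays, against 8.80, 9.06 and 8.85 in CD73+CD105- arrays. It overlapped and differed by the same size the other way (-0.32, SE 0.15, limma adjusted p = 0.311), or -0.20 without CD73+CD105+ replicate 3. Has3 differed by -0.11 at a level below that of the receptor genes, and Hyal2, a hyaluronidase at the cell surface, had an interval of -0.27 to 0.13. Hyal3, Hyal4, Hyal5 and Hyal6 overlapped, between -0.07 and 0.13.

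The remaining 9 members, of 10 genes listed, sulphate keratan sulphate and other sugars or make the HNK-1 epitope of neural cells. Of these 9, 0 were called, and 1 had an unadjusted limma p under 0.05, against 17.7% of all genes. Chst2, which sulphates ligands of L-selectin, stood at 7.68, 7.69 and 7.71 in CD73+CD105+ arrays, against 7.41, 7.25 and 7.46 in CD73+CD105- arrays. The CD73+CD105+ values lay close together and above the rest (0.32, SE 0.08, limma adjusted p = 0.0928). The other 8, among them Chst10 (0.16), Chst1 (0.07) and Chst4 (-0.16), overlapped and lay between -0.16 and 0.16. All 9 intervals of the fit without a batch term lay within 0.5 of 0, that of Chst2 only just (0.14 to 0.4997). That fit may make them too narrow.

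Arrays of the same population differed most in 4 genes. The SD within populations was 0.72 for Gpc3, 0.44 for Hs3st3a1, 0.43 for Sulf2 and 0.35 for Chst11, against a median of 0.13 over the members and 0.12 over all genes. In each of these genes, the gap between replicates 3 and 2 ran the same way in both populations. The 4 genes were chosen by their spread, and this is not particular to them. The gap also ran the same way for other members, such as Ust and Dsel, and opposite ways for others, such as Fam20b. Replicate 3 exceeded replicate 2 by 1.58 for Gpc3 among CD73+CD105+ arrays and by 1.25 among CD73+CD105- arrays, and for Sulf2 by 0.75 among CD73+CD105+ arrays and 0.82 among CD73+CD105- arrays. The gap for Hs3st3a1 was -1.10 among CD73+CD105+ arrays and -0.54 among CD73+CD105- arrays, and for Chst11 it was -0.85 and -0.52. Over all members, the difference between populations had the same sign in replicate 1 and in replicates 2 and 3 for 48 of 73, against 56.2% of all genes. In replicates 2 and 3 alone 0 members were called, against 0.145% of all genes.

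**Figure D3:**
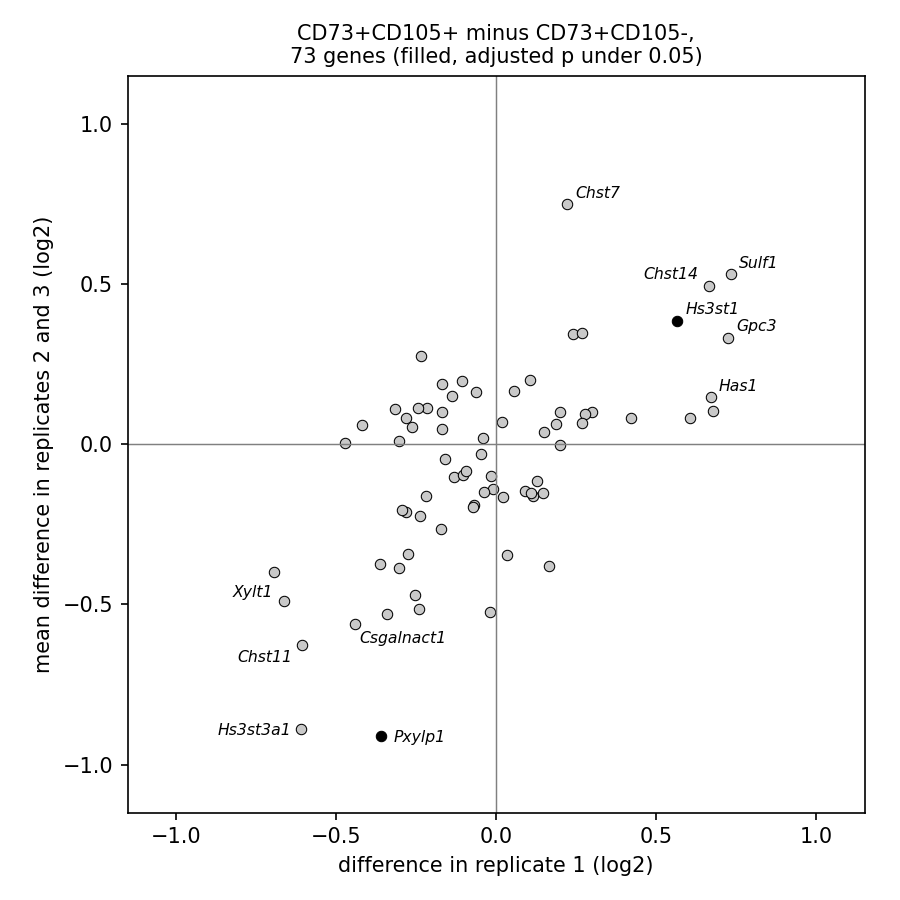
Difference between CD73+CD105+ and CD73+CD105- cells (log2) in replicate 1 on the x axis and in replicates 2 and 3 on the y axis, 1 point per gene for the 73 genes, filled for the 2 called. Pxylp1 lies at -0.36 and -0.91, Hs3st1 at 0.57 and 0.39 and Sulf1 at 0.73 and 0.53, and 48 genes have the same sign on both axes.

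Other genes of the pathway, from 4 lists, were read in the same fit: 45 of 49 were measured, 1 was called higher and 0 lower, against 1.82% of all genes. Spock3, a secreted proteoglycan core protein, rose to 6.20, 5.61 and 6.15 in CD73+CD105+ arrays, against 4.99, 5.01 and 5.21 in CD73+CD105- arrays. The arrays did not overlap (0.92, SE 0.16, limma adjusted p = 0.0432, or 0.102 with the batch term), and both means lay below the receptor gene level. Without single arrays its limma adjusted p ran from 0.00723 to 0.148, passing without CD73+CD105+ replicate 2 and missing the threshold without any other. Esm1, a dermatan sulphate proteoglycan of endothelial cells, stood at 8.89, 9.03 and 8.19 in CD73+CD105+ arrays, against 7.51, 7.89 and 7.14 in CD73+CD105- arrays (1.19, SE 0.26, limma adjusted p = 0.0737, or 0.157 with the batch term). It passed without CD73+CD105+ replicate 3. Esm1, Slc26a2, B3galt6 and Cspg4 were named after their values were seen.

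Of the 10 precursor transport and linkage genes 0 were called, and 9 lay below 0, against 11084 of all 19938 genes. An unadjusted limma p under 0.05 was found in 5, all lower, against 9.09% of all genes lower. Slc35d1, which carries nucleotide sugars for chondroitin sulphate into the secretory pathway, stood at 8.98, 9.26 and 8.64 in CD73+CD105+ arrays, against 9.50, 9.86 and 9.34 in CD73+CD105- arrays. Its arrays did not overlap (-0.61, SE 0.19, limma adjusted p = 0.157). The sulphate transporter gene Slc26a2, mutated in human chondrodysplasias, differed by -0.51 (limma adjusted p = 0.207), and the linkage galactosyltransferase gene B3galt6 by -0.39 (limma adjusted p = 0.0963). Of 12 lysosomal breakdown genes 0 were called, and 1 had an unadjusted limma p under 0.05, against 17.7% of all genes. Glb1, a beta-galactosidase, differed by -0.23 (limma adjusted p = 0.276). Of 7 genes of hyaluronan receptors and turnover 0 were called. An unadjusted limma p under 0.05 was found in 3, all higher, against 8.58% of all genes higher. Lyve1, a hyaluronan receptor of sinusoidal and lymphatic vessels, stood at 7.34, 7.09 and 7.35 in CD73+CD105+ arrays, against 6.76, 6.83 and 6.85 in CD73+CD105- arrays (0.44, SE 0.09, limma adjusted p = 0.0628). It passed without CD73+CD105+ replicate 2 (0.53, limma adjusted p = 0.0371) and missed the threshold without any other single array. With the batch term the limma adjusted p of Lyve1 was 0.175. The list of other core proteins held Spock3 and Esm1. Of its 16 genes, 5 had an unadjusted limma p under 0.05 (4 higher and 1 lower), against 17.7% of all genes. The lower 1 was Cspg4, at -0.47 (limma adjusted p = 0.0634).

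**Figure D4:**
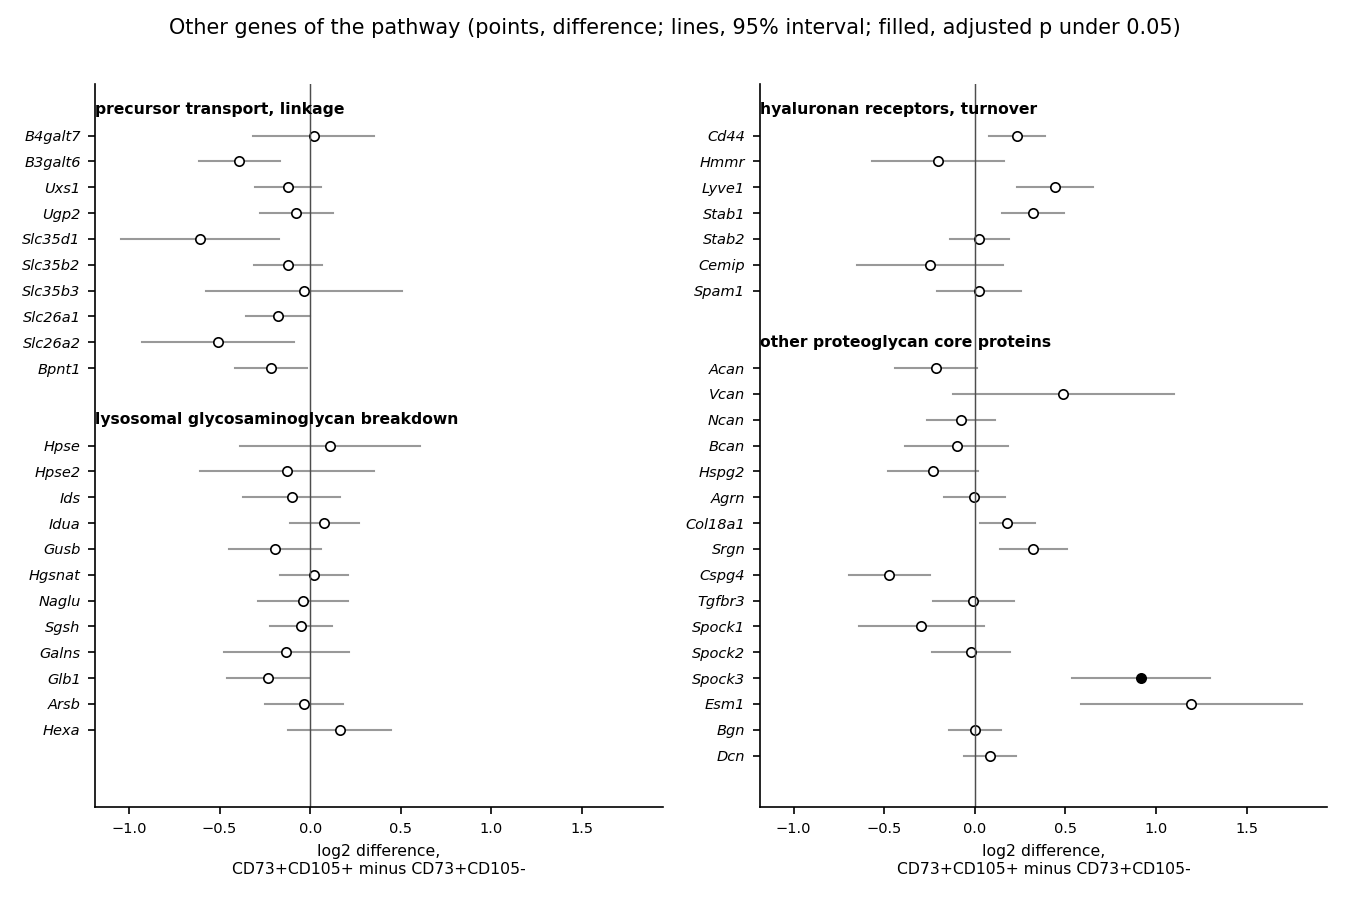
Log2 differences of the 45 other pathway genes by list (CD73+CD105+ minus CD73+CD105-), with 95% intervals and a filled point for the 1 gene with an adjusted p under 0.05. Spock3 lies at 0.92 and Esm1 at 1.19, and 9 of the 10 precursor transport and linkage genes lie left of 0.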

How the data were processed

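RMA was used by the authors to turn each array into the deposited log2 values, per the submitters' processing notes. RMA corrects background, quantile normalizes arrays and summarises probes. The sources used here give neither its version nor a probe annotation or genome build. Of 35556 probe sets, 21789 had 1 symbol in the platform annotation, 1621 several and 12146 none. Per gene the single-symbol probe set with the highest mean over 6 arrays was used, giving 19938 genes, without a filter on dim genes. Probe sets respond differently, so genes were not ranked against each other by level as a result. Mean levels served to choose which genes to name and to mark or leave out genes below the receptor gene level. That mark compares different probe sets and is only a rough guide. Groups came from the sample titles. Differences were tested in R 4.3.3 by the moderated, two-sided test of limma 3.58.1 (lmFit, then eBayes) and adjusted by Benjamini-Hochberg. The fit was tested on simulated data in which arrays varied independently and planted changes were larger than any member's difference. That setting lacks the balance of replicate 1, so it cannot vouch for the p-values given here. Intervals are 95%, per gene, from the fit without a batch term.

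The receptor gene level is the 95th percentile of 1190 gene means (Olfr, Vmn1r and Vmn2r families). Members, lists and tests were chosen with earlier results of these data known. Named genes were those called, the 3 largest differences and 2 highest means of each role group, the called or largest of each other list, and the sort genes; other members are named to complete a group. Alternatives covered normalization, dim genes, probe sets, variance model, weights, block, batch and left-out arrays.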

Additional observations from a re-analysis of the deposited data

How the results depend on the processing

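Of 19938 genes 363 were called. The count was 1331 with array weights, 215 with the replicate block, 101 with the batch term for replicate 1, 29 in replicates 2 and 3 alone, and 86 to 293 with 1 array left out. For the 73 members it was 2, and 1 when quantile normalized again, 0 when arrays were centred on their medians, 11 with array weights, 0 with the replicate block, 0 with the batch term, 0 in replicates 2 and 3 alone and 0 to 3 with 1 array left out. For the 45 other pathway genes it was 1, and 0 when quantile normalized again or centred, 0 over genes above the receptor gene level (Spock3 lies below it), 8 with array weights, 2 with the replicate block, 0 with the batch term, 0 in replicates 2 and 3 alone and 0 to 2 with 1 array left out. Of 732 recomputed differences of 46 named genes, 658 kept their direction and side of the threshold, or for replicate 1 alone stayed within the spread. Pxylp1, Hs3st1, Spock3 and Eng lost their call in 29, 15 differences of genes without a call passed, 16 of replicate 1 alone moved in size and 14 changed sign. The sign changes were in genes without a call. With array weights Ext2 was at 0.0176 and Sdc4 at 0.0254. In replicates 2 and 3 alone Csgalnact2 was at 0.0595, Chst4 at 0.0032 and Chst1 at -0.0012. In replicate 1 alone Extl2 was at 0.17, Ext2 at 0.14, Chpf2 at 0.0353, Chsy1 at 0.0227, Sdc1 at -0.0629 and Sdc4 at 0.13. With 1 array left out Hyal5 ran from -0.0142 to 0.25, Ext2 from -0.12 to 0.0486 and Sdc4 from -0.087 to 0.0485. The causes were not tested. Deviations from the group means of same-numbered arrays correlated at -0.883, 0.00659 and 0.104 for replicates 1, 2 and 3, and 0 of the 6 arrays correlated best with their own number. The balance of replicate 1 forces the deviations of its arrays nearly to cancel, so these correlations do not settle whether the numbers pair samples, and the fit with the block stands as an alternative. With the replicate block the limma adjusted p was 0.0835 for Pxylp1, 0.13 for Hs3st1, 0.0415 for Spock3 and 0.00802 for Esm1. No detection calls were used here, so a dim gene has no bound from its own array.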
